A study of Rattus norvegicus with 6 samples.

Results

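The 37 genes described here encode the enzymes of glycolysis, the transporters that carry glucose and lactate across the plasma membrane, and the mitochondrial enzymes that feed pyruvate into the tricarboxylic acid (TCA) cycle and turn the cycle. They were picked by gene symbol, and all 37 were found among the 29884 genes of the count table. The glycolysis and lactate arm holds 21 of them and the pyruvate dehydrogenase and TCA arm 16. All 6 samples were trigeminal ganglia of wild-type rats with chronic constriction of the infraorbital nerve (CCI-ION), a model of trigeminal neuralgia in which a sensory branch of the trigeminal nerve is ligated. The 3 injury samples had CCI-ION alone and were labelled days 14, 15 and 16 after injury. The 3 conduit samples had CCI-ION and SFM-Gel @NGC-Light, a light-driven nerve conduit, and were labelled days 17, 18 and 19. The sources used here give no strain, sex or age, nor whether every sample was a different animal, and ganglia without CCI-ION were not analysed here. The labelled day goes up by 1 from each sample to the next, and whether it is the day of sampling was not tested; as labelled, conduit and day cannot be told apart. Of the 3 labelled batches, the first held injury samples 1 and 2 only, the second paired injury sample 3 with conduit sample 1, and the third held conduit samples 2 and 3 only. The series title names oxygen made by photosynthesis and restored mitochondrial function as the aim of the conduit, which is the question that the expression of these energy genes bears on.

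Glycolysis splits glucose into pyruvate in the cytosol and needs no oxygen. Pyruvate is then either reduced to lactate by lactate dehydrogenase or taken into mitochondria, where the pyruvate dehydrogenase complex turns it into acetyl-CoA for the TCA cycle, whose reduced cofactors feed oxygen-dependent ATP synthesis. In sensory ganglia, neurons with large somata and long axons rely heavily on mitochondria, and glial cells are thought to pass lactate to them through monocarboxylate transporters.

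Each library held between 40172473 and 41903629 counts. Sensory neuron markers were present in every library (18 of 18 genes tested, summed level 23933 to 33951 CPM, the counts scaled to a common library size with edgeR's TMM factors), as were satellite glia markers (11 of 11, 6137 to 9665 CPM). Conduit sample 2 stood apart. Its 21 listed skeletal muscle genes summed to 13673 CPM, against 883, 115 and 113 CPM in the injury samples and 132 and 161 CPM in conduit samples 1 and 3. Erythroid genes summed to 4985 to 5769 CPM in the injury samples and 889 to 1652 CPM in the conduit samples, and myelinating Schwann cell genes to 31881 to 39514 and 45935 to 53509.9 CPM. Results that rest on conduit sample 2 are therefore given with and without it. These are bulk samples, so fewer cells of a type and less RNA per cell cannot be told apart.

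None of the 37 genes passed the test of conduit against injury. All 37 entered the edgeR quasi-likelihood fit over 16478 genes, and their Benjamini-Hochberg adjusted p was 0.99981 each. At an unadjusted p under 0.05, edgeR picked 0 of 37. DESeq2 gave a p-value for 36 of the 37, none for Slc16a3, and picked 0 of 36 adjusted and 0 of 36 unadjusted. Over all genes tested, edgeR called 0.00607% at adjusted p under 0.05 and 5.35% at unadjusted p under 0.05, and DESeq2 called 1.19% at adjusted and 5.12% at unadjusted p under 0.05. The groups overlapped for every one of the 37, whereas they did not overlap for 9.63% of all genes (5.41% with conduit higher and 4.22% with conduit lower). In 34 of the 37 genes the log2 fold change lay between -0.18 and 0.23 with standard errors of 0.072 to 0.30. The other 3 were Slc16a3, Hk2 and Idh2, and in each of them the highest library was conduit sample 2. The plot of fold changes shows these 3 estimates with and without that library.

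**Figure D1:**
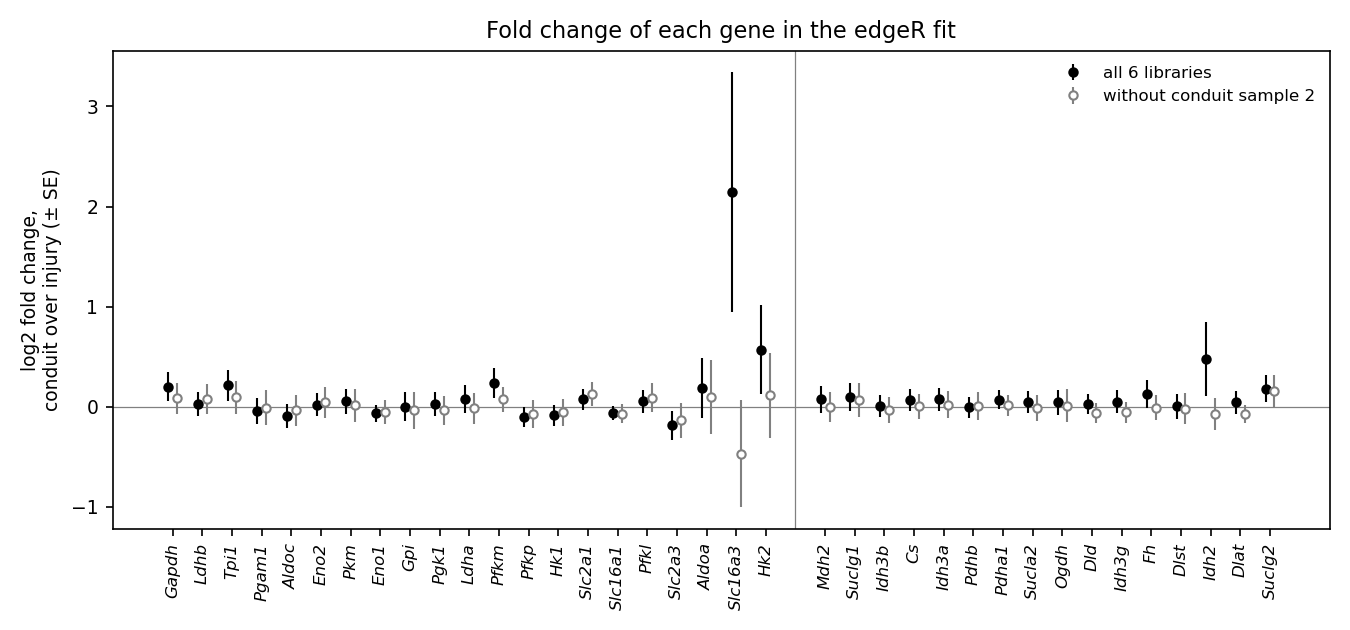
Log2 fold change of conduit over injury with its standard error (y axis) for each of the 37 genes (x axis, in order of FPKM within each arm, glycolysis and lactate left of the line and TCA right of it). Filled points use all 6 libraries and open points leave out conduit sample 2. Slc16a3 moves from 2.14 to -0.47, Idh2 from 0.48 to -0.07 and Hk2 from 0.57 to 0.11, while no other gene exceeds 0.25 in size in the filled points.

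The sign of the small differences was not even. Of the 37 log2 fold changes, 29 were above 0 and 8 below 0, with 14 above and 7 below in the glycolysis arm and 15 above and 1 (Pdhb) below in the TCA arm. Among all genes tested, 8323 were above 0 and 8155 below 0. The median log2 fold change was 0.03 in the glycolysis arm and 0.06 in the TCA arm, beside 0.0017 over all genes tested. Without conduit sample 2, 17 were above and 20 below 0, and the medians were -0.0081 and -0.0065, beside 0.0089 over all genes. In that 5-library fit edgeR again called 0 of the 37 at adjusted and 0 at unadjusted p under 0.05, where it called 0.00593% and 3.59% of all genes. Without injury sample 1 and conduit sample 2, the pair of libraries with the highest muscle sums, 27 of the 37 were above 0. The medians in that fit were 0.061 (glycolysis) and 0.057 (TCA), beside 0.024 over all genes.

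As a group these genes were abundant and varied little between libraries. Levels between genes are compared here as FPKM, which divides by gene length. Gapdh, the dehydrogenase of the glycolytic triose step, had the highest mean level at 893 FPKM and ranked 40 of 16478 genes tested. It was followed by Ldhb (340.1 FPKM), Tpi1 (311), Pgam1 (287), Aldoc (261) and Eno2 (259). In the TCA arm, Mdh2, the malate dehydrogenase of the mitochondrial matrix, led at 234 FPKM, ahead of Suclg1 (126), Idh3b (104) and Cs (94.1). Means over 100 FPKM were found for 12 glycolysis genes and 3 TCA genes. At the low end, Hk2 (1.42 FPKM), Slc16a3 (1.69) and Aldoa (1.78) were under 2 FPKM, and Suclg2 was the lowest TCA gene at 18.8. The median coefficient of variation of the 37 over the 6 libraries was 10% on the CPM scale, beside 14.4% over all genes tested. It was under 15% for 31 of the 37, and for 34 without conduit sample 2. The 3 genes under 2 FPKM had 48.7% (Hk2), 165% (Slc16a3) and 22.2% (Aldoa). Genes of like abundance outside the 37 were not compared.

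**Figure D2:**
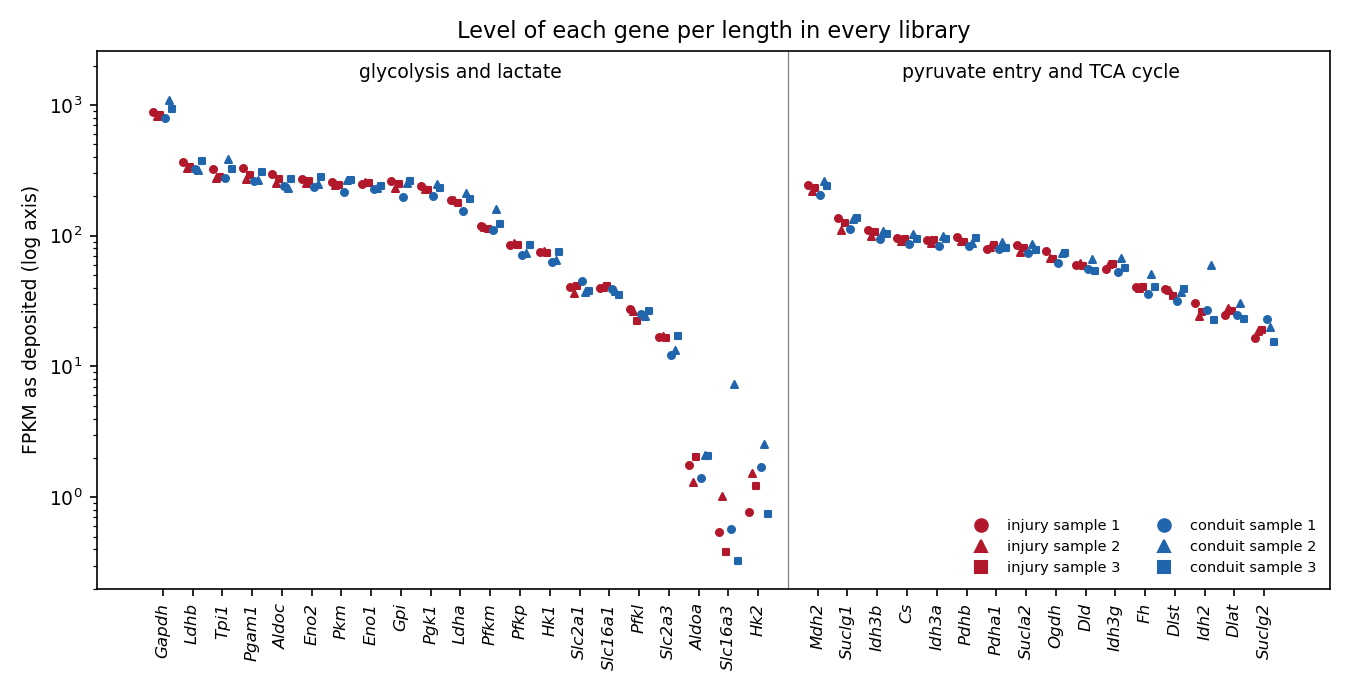
FPKM (y axis, log scale) of each gene (x axis, ordered by mean within each arm) in the 3 injury libraries (red) and 3 conduit libraries (blue); the marker shape gives the sample number. The 6 points of most genes lie close together, and conduit sample 2 (blue triangle) stands above the others for Slc16a3 and Idh2.

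Promoter sequence was read for the genes that the results turn on: Ldha and Slc16a1 as the lactate genes whose windows hold the motif described here, and Slc16a3, Hk2 and Idh2 as the genes with the widest spread between libraries. Since Ldha and Slc16a1 were chosen for their matches, finding matches in them is no result. The window of Ldhb, not shown, holds 0. The sequences are from RefSeq on the rat build GRCr8, a later build than the one the counts were made on. Each shows the 250 bases before the annotated start, 5′ to 3′ in the direction of the gene. Capitals mark ACGTG or its reverse complement CACGT, a form of the core that hypoxia-inducible factors are known to bind. No other form of that core was marked or counted. The windows are chr1:106507842-106508091, plus strand, for Ldha, chr2:194812410-194812659, plus strand, for Slc16a1, chr10:106712078-106712327, plus strand, for Slc16a3, chr4:116841276-116841525, minus strand, for Hk2 and chr1:143467249-143467498, minus strand, for Idh2.
Ldha: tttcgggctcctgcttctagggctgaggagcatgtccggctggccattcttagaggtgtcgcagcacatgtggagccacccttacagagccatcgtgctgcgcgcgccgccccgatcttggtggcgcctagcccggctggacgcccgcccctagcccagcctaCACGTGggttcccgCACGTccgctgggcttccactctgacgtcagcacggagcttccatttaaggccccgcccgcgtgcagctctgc
Slc16a1: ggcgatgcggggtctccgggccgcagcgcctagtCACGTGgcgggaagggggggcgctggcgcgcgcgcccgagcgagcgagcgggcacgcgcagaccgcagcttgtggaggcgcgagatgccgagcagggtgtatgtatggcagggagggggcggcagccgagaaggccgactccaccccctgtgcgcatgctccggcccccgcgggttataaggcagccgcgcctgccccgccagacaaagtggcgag
Slc16a3: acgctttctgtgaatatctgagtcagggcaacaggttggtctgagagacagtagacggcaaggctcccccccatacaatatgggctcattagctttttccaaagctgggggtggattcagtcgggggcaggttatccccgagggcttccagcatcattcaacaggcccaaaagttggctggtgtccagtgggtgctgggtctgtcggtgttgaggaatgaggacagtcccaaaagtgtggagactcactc
Hk2: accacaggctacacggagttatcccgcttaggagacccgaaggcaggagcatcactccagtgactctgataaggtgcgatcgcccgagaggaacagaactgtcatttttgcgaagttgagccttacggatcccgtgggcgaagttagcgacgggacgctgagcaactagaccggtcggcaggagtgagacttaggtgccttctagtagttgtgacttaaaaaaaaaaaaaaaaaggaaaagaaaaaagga
Idh2: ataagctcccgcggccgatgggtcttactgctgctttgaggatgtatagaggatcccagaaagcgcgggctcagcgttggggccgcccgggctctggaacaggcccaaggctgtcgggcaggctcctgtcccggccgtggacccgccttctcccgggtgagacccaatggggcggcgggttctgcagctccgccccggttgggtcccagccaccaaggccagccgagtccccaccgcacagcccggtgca

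The Ldha window holds 3 matches on either strand, which make up CACGTG (a palindrome that counts once on each strand) and 1 further CACGT. In the Slc16a1 window the 2 matches are both strands of 1 CACGTG, and the other 3 windows hold none. Of the 37 genes, 34 had a promoter entry; Pgk1, Slc2a3 and Idh3a did not. ACGTG on either strand was found in 10 of 19 glycolysis genes (52.6%), namely Aldoa, Aldoc, Eno2, Gapdh, Hk1, Ldha, Pfkm, Pgam1, Slc16a1 and Slc2a1, and in 4 of 15 TCA genes (26.7%), namely Dlat, Idh3g, Ogdh and Pdhb. Over all 27457 genes with an entry the share was 18.1%. The palindrome CACGTG alone was found in 2 of 19 glycolysis genes (10.5%), 2 of 15 TCA genes (13.3%) and 6.18% of all genes. Another sequence, CAGCTG, was found in 1 of 19 (5.26%), 2 of 15 (13.3%) and 12.9%. The windows also differed in base composition, with a median GC content of 63.2% for glycolysis genes, 60.0% for TCA genes and 51.2% for all genes. A match describes the letters of the window and was not tested as a binding site.

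Glucose enters cells through facilitative transporters, of which Slc2a1 (GLUT1) is the form of barrier endothelium and glia and Slc2a3 (GLUT3) the high-affinity neuronal form. Slc2a1 was measured at 106, 89.6 and 103 CPM in injury samples 1, 2 and 3 and at 115, 97.3 and 102 CPM in conduit samples 1, 2 and 3, a log2 fold change of 0.073 ± 0.10 (SE). Slc2a3 stood at 75.4, 72.4 and 72.2 CPM after injury alone and 53.7, 60.8 and 79.1 CPM with the conduit, a log2 fold change of -0.18 ± 0.14 (unadjusted edgeR p 0.243, adjusted 0.99981). Conduit sample 1 held both the highest Slc2a1 and the lowest Slc2a3 value of the 6, and conduit sample 3 the highest Slc2a3, so the groups overlapped for both. Leaving out conduit sample 3 gave Slc2a3 a log2 fold change of -0.36 (edgeR p 0.00733, adjusted 0.604), in a fit where 7.17% of all genes had an unadjusted p under 0.05.

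Hexokinase traps glucose as its phosphate, with Hk1 the form of brain and nerve and Hk2 the insulin-regulated form of muscle and fat. Hk1 read 323, 308 and 309.7 CPM in the injury libraries and 266, 285 and 335 CPM in the conduit libraries (-0.086 ± 0.11 on the log2 scale). The 3 injury values lay within the range of the conduit values. Hk2 was far lower, at 2.86, 5.25 and 4.34 CPM against 6.08, 9.57 and 2.86 CPM, a log2 fold change of 0.57 ± 0.45 (unadjusted edgeR p 0.244, adjusted 0.99981). Conduit samples 1 and 2 had the highest Hk2 values and conduit sample 3 lay at the level of injury sample 1, the lowest. Without conduit sample 2 the Hk2 estimate was 0.11 ± 0.42, and without conduit sample 3 it was 0.92 (edgeR p 0.0315, adjusted 0.666).

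Phosphofructokinase commits the sugar to glycolysis and is built from muscle (Pfkm), liver (Pfkl) and platelet (Pfkp) subunits. Pfkm measured 387, 354 and 354 CPM in the injury samples and 353, 523 and 412 CPM in the conduit samples, a log2 fold change of 0.23 ± 0.15 (unadjusted edgeR p 0.161, adjusted 0.99981). The value in conduit sample 2 was 1.27-fold the next highest, and without that library the estimate was 0.074 ± 0.13. Pfkl was at 83.5, 74.0 and 64.0 CPM and 73.4, 73.3 and 83.3 CPM (0.054 ± 0.12), and injury samples 1 and 3 spanned its whole range. Pfkp was at 546, 531 and 531 CPM and 449.8, 485 and 564 CPM (-0.10 ± 0.10), lowest in conduit sample 1 and highest in conduit sample 3.

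The middle steps, from glucose 6-phosphate isomerase to enolase, held 9 of the genes. Gapdh read 1293, 1122 and 1177 CPM after injury alone and 1119, 1598 and 1411 CPM with the conduit, a log2 fold change of 0.20 ± 0.14 (unadjusted edgeR p 0.205, adjusted 0.99981). Tpi1, which interconverts the triose phosphates, read 477, 383 and 396 CPM and 395, 568 and 495 CPM, a log2 fold change of 0.22 ± 0.16 (unadjusted edgeR p 0.209, adjusted 0.99981). For both genes conduit samples 2 and 3 held the highest values of the 6, but conduit sample 1 lay among the injury values or under them. Leaving out conduit sample 2, the highest library for both, gave log2 fold changes of 0.085 ± 0.16 for Gapdh and 0.095 ± 0.17 for Tpi1. Without conduit sample 1, edgeR gave unadjusted p-values under 0.05 for Gapdh (0.33, p 0.0268), Pfkm (0.36, p 0.0347) and Tpi1 (0.35, p 0.0448), each with an adjusted p of 0.99991. In that fit 4.76% of all genes had an unadjusted p under 0.05. The other members of this stretch had log2 fold changes between -0.09 and 0.19. Gpi (isomerase) had means of 489.9 ± 44.4 (SD) CPM in the injury samples and 489.9 ± 84.9 CPM in the conduit samples. Aldoc, the aldolase of nervous tissue, had 427 ± 49.1 and 401 ± 44.5 CPM. Pgk1 and Pgam1 carry the ATP-forming kinase and the mutase steps. Pgk1 had 377 ± 26.8 and 385 ± 50.4 CPM, and Pgam1 527 ± 68.4 and 513 ± 60.5 CPM. Among the enolases, the widely expressed Eno1 had 510.2 ± 7.23 and 487 ± 27.7 CPM, and the neuronal Eno2 642 ± 47.7 and 651 ± 79.8 CPM. In each of these 6 genes the group means lay closer together than the SD of the conduit group.

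Aldoa, the aldolase usually abundant in muscle and brain, was listed with only 84 to 139 counts a library, or 2.69 ± 0.631 and 3.07 ± 0.720 CPM, and conduit samples 2 and 3 had the same value to 3 digits. In RefSeq on GRCr8, a protein-coding gene named LOC103691235 covers the whole of Aldoa, and the count table lists it at 15 to 24 counts. How reads at this locus were assigned was not tested, so the level of Aldoa is uncertain. Another 6 of the 37 overlap a protein-coding gene in that annotation: Pfkm with Senp1, Tpi1 with Spsb2, Slc16a3 with Csnk1d, Pdha1 with Map3k15, Idh3b with Nop56 and Dlst with Prox2. The sources used here do not state the strand setting of the counting, so reads of such pairs may not be separable.

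Pyruvate kinase and lactate dehydrogenase set what becomes of the end product. Pkm, the pyruvate kinase of most tissues other than liver, read 786, 694 and 709.8 CPM in the injury samples and 634, 806 and 834 CPM in the conduit samples (0.055 ± 0.13). Ldha, the subunit that favours lactate formation, read 359.6, 333 and 327 CPM and 289, 409 and 381 CPM, a log2 fold change of 0.081 ± 0.14. Ldhb, the subunit that favours pyruvate formation, read 529.9, 445 and 463 CPM and 451, 458 and 554 CPM (0.026 ± 0.12). For all 3, conduit samples 1 and 3 lay on either side of the mean of the injury samples, with conduit sample 1 lowest for Pkm and Ldha.

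The lactate transporters among the 37 genes are Slc16a1 (MCT1) and Slc16a3 (MCT4), which are not the whole family. MCT1 is found in glia and endothelium, and MCT4 is the low-affinity exporter of strongly glycolytic cells such as fast muscle fibres. Slc16a1 was the steadiest of the 37 genes, at 139.7, 133 and 139.6 CPM in injury samples 1 to 3 and 133, 135 and 128 CPM in conduit samples 1 to 3, a log2 fold change of -0.060 ± 0.072 (unadjusted edgeR p 0.432, adjusted 0.99981). Its coefficient of variation over the 6 libraries was 3.24%. Slc16a3 was the most variable, at 165%. It had 60, 110 and 42 counts in the injury libraries and 63, 803 and 37 counts in the conduit libraries, or 1.49, 2.60 and 1.01 and 1.52, 20.2 and 0.929 CPM. Conduit sample 2 was 7.75-fold above the highest of the other 5 libraries, injury sample 2, and the other conduit libraries lay within or under the injury range. The log2 fold change of 2.14 ± 1.2 (unadjusted edgeR p 0.121, adjusted 0.99981) became -0.47 ± 0.53 without conduit sample 2. Csnk1d, the kinase gene that overlaps Slc16a3, was at 208 CPM in conduit sample 2 and 201 to 254 CPM over the 6 libraries.

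Pyruvate enters the cycle through the pyruvate dehydrogenase complex. Pdha1, its regulated catalytic subunit, read 232, 226 and 241 CPM in the injury samples and 224, 266 and 245 CPM in the conduit samples (0.073 ± 0.092). Conduit sample 2 was the highest and conduit sample 1 the lowest. Pdhb, its partner subunit, had means of 164 ± 12.4 (SD) and 163 ± 17.2 CPM. Dlat and Dld, the acetyltransferase and the dihydrolipoyl dehydrogenase, had 67.5 ± 1.76 against 69.7 ± 10.2 CPM and 172 ± 5.03 against 175 ± 19.8 CPM. In both, conduit sample 2 was the highest library and the other conduit samples lay under every injury sample.

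The cycle opens with citrate synthase (Cs), which read 333, 299 and 315 CPM in the injury samples and 291, 363 and 339.8 CPM in the conduit samples (0.070 ± 0.11). Idh3a, the catalytic subunit of the NAD-dependent isocitrate dehydrogenase of the cycle, read 238, 211 and 229 CPM and 206, 257 and 250.5 CPM (0.074 ± 0.11), and its partners Idh3b and Idh3g had log2 fold changes of 0.0076 ± 0.11 and 0.050 ± 0.11. For Cs and Idh3a alike, conduit sample 1 was lowest and conduit samples 2 and 3 highest. Idh2, the NADP-dependent matrix enzyme that supplies reducing power and is rich in heart and muscle, read 52.1, 38.6 and 42.8 CPM and 44.7, 102 and 39.6 CPM. Its value in conduit sample 2 was 1.96-fold the next highest, in injury sample 1, and the other 4 libraries lay between 38.6 and 44.7 CPM. The log2 fold change of 0.48 ± 0.37 (unadjusted edgeR p 0.237, adjusted 0.99981) became -0.072 ± 0.16 without conduit sample 2.

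Further round the cycle, Ogdh, the rate-setting subunit of the oxoglutarate dehydrogenase complex, read 367, 305 and 306 CPM in the injury samples and 289, 354 and 366 CPM in the conduit samples (0.045 ± 0.13). Its partner Dlst had 163 ± 13.4 and 163 ± 22.0 CPM. Injury sample 1 and conduit samples 2 and 3 made up the upper part of the range for both. Succinyl-CoA ligase pairs Suclg1 with either the GTP-forming Suclg2 or the ATP-forming Sucla2. Suclg2 read 37.2, 39.5 and 41.2 CPM and 51.1, 46.1 and 36.2 CPM, a log2 fold change of 0.18 ± 0.14 (unadjusted edgeR p 0.229, adjusted 0.99981). It was the one TCA gene with its highest value in conduit sample 1, and its lowest was in conduit sample 3. Without conduit sample 3 its log2 fold change was 0.31 (edgeR p 0.0173, adjusted 0.621). Suclg1 and Sucla2 had log2 fold changes of 0.097 ± 0.14 and 0.047 ± 0.11. Fh, fumarate hydratase, read 64.7, 60.2 and 63.2 CPM and 56.1, 82.1 and 67.9 CPM (0.13 ± 0.14), with conduit sample 2 1.21-fold above the next library and an estimate of -0.0098 ± 0.12 without it. Mdh2, which closes the cycle, had 295 ± 25.8 and 311 ± 45.7 CPM.

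The levels of the glycolysis arm and the TCA arm kept nearly the same proportion in every library. The 21 glycolysis and lactate genes summed to 4076, 3766 and 3821 FPKM in injury samples 1 to 3 and 3502, 4166 and 4085 FPKM in conduit samples 1 to 3. The 16 TCA genes summed to 1283, 1199.8 and 1240.0 FPKM and 1129, 1378 and 1250.1 FPKM. Conduit sample 1 was the lowest and conduit sample 2 the highest of the 6 libraries for both sums. The ratio of the sums, glycolysis over TCA, was 3.18, 3.14 and 3.08 in the injury samples (mean 3.13 ± 0.0486, SD, n = 3) and 3.10, 3.02 and 3.27 in the conduit samples (mean 3.13 ± 0.125, n = 3). The conduit values enclosed the injury values. Summed FPKM weighs abundant genes most, so the arms were also compared by their mean log2(FPKM + 1), in which each gene counts equally. The glycolysis mean exceeded the TCA mean by 0.281 ± 0.0194 (SD, n = 3) in the injury samples and 0.276 ± 0.0380 (n = 3) in the conduit samples, a difference between groups of -0.0048, less than either SD. With only the genes whose mean was at least 10 FPKM, which leaves out Hk2, Slc16a3 and Aldoa, it was -0.0586. The SDs given above are of the full arms. They do not measure the spread of this smaller set between libraries, which was not computed. In share of all counts, the glycolysis arm took 0.705% to 0.826% and the TCA arm 0.25% to 0.301%. In batch 2, the single batch with both groups, the median log2 difference of conduit sample 1 from injury sample 3 was -0.139 in the glycolysis arm and -0.116 in the TCA arm, with 1 library a group and no test.

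**Figure D3:**
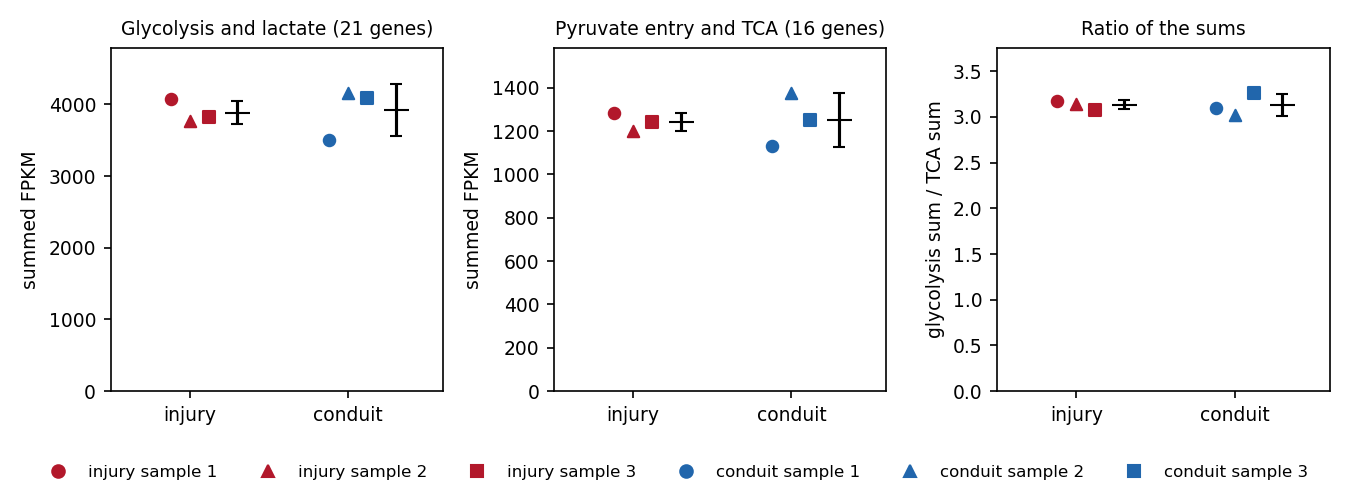
Summed FPKM of the 21 glycolysis and lactate genes (left), of the 16 pyruvate dehydrogenase and TCA genes (middle) and the ratio of the sums (right) for each library, with the mean ± SD of each group of 3 as a bar; all y axes start at 0. Conduit sample 1 is lowest and conduit sample 2 highest in both sums, and the ratio lies between 3.02 and 3.27 in all 6 libraries.

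Genes that encode alternative forms for a single step were compared by their log2 ratio of FPKM within each library, which needs no scaling between libraries. Of the 10 pairs, none separated the groups: exact two-sided permutation p-values ran from 0.3 to 0.9 (0.778 to 0.9 after Benjamini-Hochberg adjustment over the 10), where 3 libraries against 3 cannot give less than 0.1. The Slc16a3 to Slc16a1 ratio was -6.19, -5.32 and -6.74 in the injury libraries and -6.09, -2.37 and -6.74 in the conduit libraries, so that the exporter form was least scarce in conduit sample 2. For Ldhb over Ldha the ratio was 0.97, 0.83 and 0.91 and 1.05, 0.57 and 0.95. Ldhb exceeded Ldha in every library, by least in conduit sample 2. The Idh2 to Idh3a ratio was -1.60, -1.86 and -1.83 and -1.61, -0.75 and -2.07, and the Pfkm to Pfkl ratio 2.09, 2.14 and 2.35 and 2.15, 2.72 and 2.19. In both, conduit sample 2 was again highest; conduit sample 3 was lowest for the first ratio and inside the injury range for the second. Hk2 over Hk1 ran from -6.64 in conduit sample 3 to -4.67 in conduit sample 2. Slc2a3 over Slc2a1 ran from -1.88 in conduit sample 1 to -1.09 in injury sample 2, and Suclg2 over Sucla2 from -2.37 in injury sample 1 to -1.67 in conduit sample 1. Conduit sample 1, where the neuronal glucose transporter was lowest against the glial form, also had the highest satellite glia sum (9665 CPM) and was lowest of the 6 for 14 of the 18 sensory neuron markers; the part of these in the ratios was not tested. The remaining pairs were Eno2 over Eno1 (-0.045 to 0.23), Pfkp over Pfkl (1.51 to 1.95) and Aldoc over Aldoa (6.77 to 7.61), the last with the doubt about Aldoa given above.

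**Figure D4:**
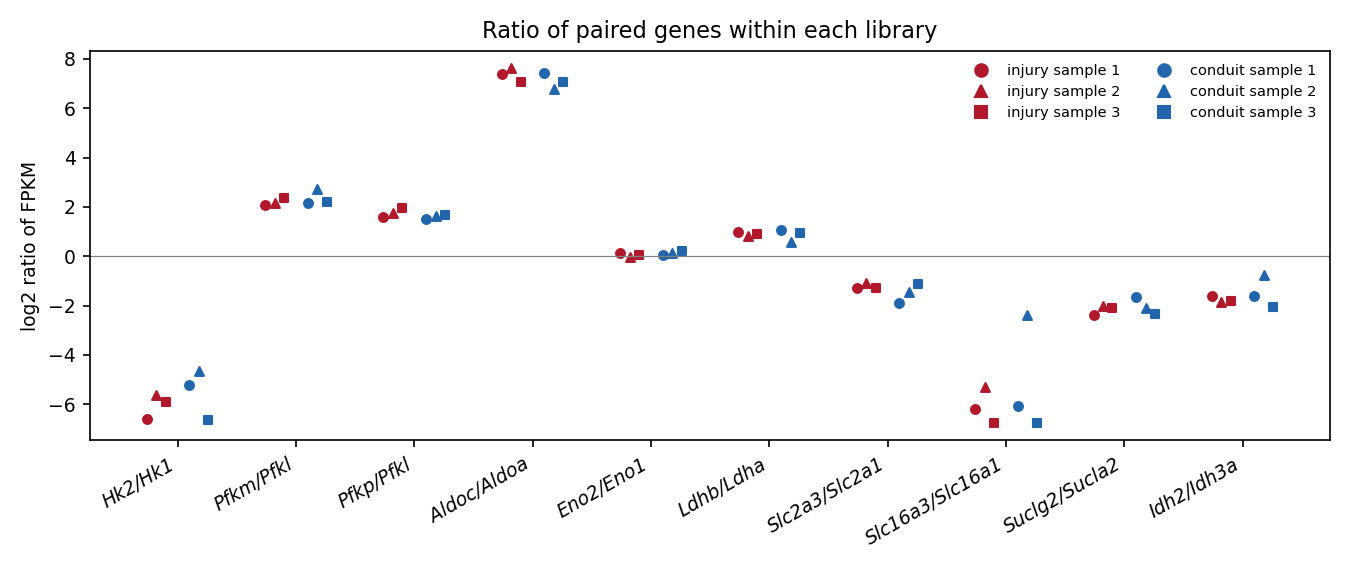
Log2 ratio of FPKM of paired genes within each library (y axis) for the 10 pairs (x axis), injury libraries in red and conduit libraries in blue, marker shape by sample number. The conduit and injury points of every pair overlap; conduit sample 2 lies at -2.37 for Slc16a3 over Slc16a1, where the other libraries lie between -6.74 and -5.32.

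Conduit samples 1 and 2 often held the extreme values. Conduit sample 2 was the highest of the 6 libraries for 18 of the 37 genes, beside 12.8% of all genes tested, and conduit sample 1 the lowest for 23, beside 19.2%. In conduit sample 2, 5 genes stood more than 1.2-fold above the next library: Slc16a3, Idh2, Hk2, Pfkm and Fh. The same library held the muscle signal, as the highest of the 6 for 17 of the 20 muscle genes tested. The other 3, Myh7, Tnnt1 and Tnni1, were highest in injury sample 1 (3.03, 5.52 and 2.11 CPM). In conduit sample 2 they read 2.74, 0.326 and 0.703 CPM. Acta1, the skeletal muscle actin, read 77.3, 5.94 and 6.12 CPM in the injury samples and 5.16, 2198 and 10.5 CPM in the conduit samples, and Ckm, muscle creatine kinase, read 115, 0.0237 and 0.0241 and 0.314, 1491 and 1.71 CPM. Muscle forms of glycolytic enzymes outside the 37 genes followed it, a choice made after their values were seen: Eno3, the muscle enolase, read 29.2, 5.84 and 6.43 and 5.62, 404 and 6.45 CPM, and Pgam2, the muscle mutase, 9.99, 0.189 and 0.193 and 0.483, 174 and 0.452 CPM. Injury sample 1 had the next highest level of these 4 genes but not of Slc16a3 or Hk2. The part of muscle RNA in the members' values was not tested; without conduit sample 2, the log2 fold changes of these 5 genes lay between -0.47 and 0.11.

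**Figure D5:**
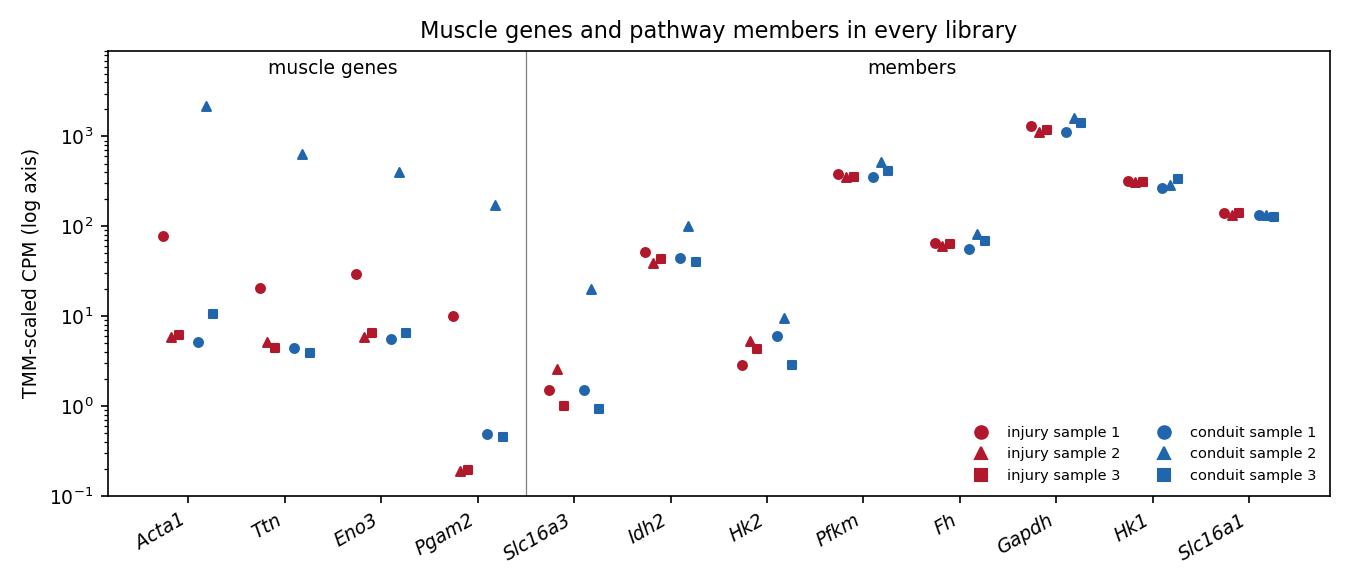
CPM (y axis, log scale) of 4 muscle genes (left) and 8 of the 37 genes (right) in each library, injury in red and conduit in blue, marker shape by sample number. Conduit sample 2 lies far above the other libraries for Acta1, Ttn, Eno3, Pgam2 and Slc16a3, by 1.96-fold for Idh2, and inside the range of the others for Hk1 and Slc16a1.

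Other genes of the same pathways were read from lists of related members. Of 29 further glycolysis and lactate genes, 21 passed edgeR's filter on low counts. Among these 21, edgeR called 0 at adjusted p under 0.05 and 2 (both lower with the conduit) at unadjusted p under 0.05, beside 5.35% of all genes, and 3 did not overlap between groups, all lower, beside 4.22%. DESeq2 gave 24 of the 29 a p-value and called 3 of them at unadjusted p under 0.05, beside 5.12% of all genes. It gave 21 of the 29 an adjusted p and called 1 of them at adjusted p under 0.05, beside 1.19% of all genes. That 1 gene, named after its values were seen, was Pklr, the pyruvate kinase of liver and red cells, which edgeR's filter left out. Pklr had 2, 91 and 51 counts in injury samples 1, 2 and 3 and 0 in each conduit sample, so it was near 0 in injury sample 1 as well. Bpgm, the mutase that makes 2,3-bisphosphoglycerate in red cells, read 77.7, 74.7 and 71.3 CPM after injury alone and 51.4, 54.5 and 63.3 CPM with the conduit, a log2 fold change of -0.40 ± 0.10 (edgeR p 0.00520, adjusted 0.614). Emb, embigin, a chaperone of monocarboxylate transporters, read 34.2, 45.6 and 38.9 and 29.8, 30.3 and 26.3 CPM, a log2 fold change of -0.46 ± 0.13 (edgeR p 0.00929, adjusted 0.697). For both genes every conduit sample lay under every injury sample. Erythroid genes were lower in the conduit samples too, by the sums given above, with 13 of 15 at unadjusted p under 0.05 in edgeR and, at adjusted p under 0.05, 0 in edgeR and 12 in DESeq2; their part in the Bpgm and Pklr values was not tested. Pfkfb1 and Pfkfb2 make and break down the sugar phosphate that activates phosphofructokinase. Pfkfb1 had log2 fold changes of 2.42 with and -0.089 without conduit sample 2, and Pfkfb2, at 31.4 ± 2.70 and 27.3 ± 2.36 CPM, a log2 fold change of -0.20 ± 0.11.

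Of 36 further genes of pyruvate entry and the TCA cycle, 35 were in the table and tested; edgeR called 0 at adjusted and 0 at unadjusted p under 0.05, as did DESeq2, and 2 did not overlap, both lower with the conduit, beside the 4.22% of all genes. These were Pck2, the mitochondrial carboxykinase (38.5, 34.8 and 33.3 against 28.8, 30.2 and 32.8 CPM, log2 fold change -0.22 ± 0.098), and Idh1, the cytosolic isocitrate dehydrogenase (155, 129 and 132 against 124, 125 and 122 CPM, -0.16 ± 0.094). Mpc1 and Mpc2, which form the mitochondrial pyruvate carrier, had log2 fold changes of 0.29 ± 0.14 and 0.27 ± 0.15, with injury sample 1 inside the conduit range for both. Of 7 pentose phosphate genes, 0 passed edgeR or DESeq2 at adjusted or unadjusted p under 0.05. Among these 7, 1 did not overlap, with conduit higher, beside 5.41% of all genes. This was Rpe, the epimerase of the pathway, at 28.4, 30.4 and 32.7 CPM against 36.4, 35.5 and 33.1 CPM (0.20 ± 0.093, unadjusted edgeR p 0.0713). Rpia and Pgls, the isomerase and lactonase of the same route, had log2 fold changes of -0.12 ± 0.13 and 0.11 ± 0.14. The median log2 fold change was 0.041 in the further glycolysis list, 0.059 in the further TCA list and 0.029 in the pentose list, and -0.089, -0.0037 and 0.076 without conduit sample 2.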

How the data were processed

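RNA of 6 trigeminal ganglion samples (3 per group, grouped by title) was measured by paired-end RNA-seq of purified mRNA, per the labels' protocols. The authors deposited unscaled whole counts by gene symbol. They also deposited FPKM, which hold no further measurement: for 15192 genes checked, they are the counts divided by a gene length common to all libraries and by the library's total. Reads were handled with HISAT2, HTSeq, fastp and SAMtools on the build mRatBN7.2, and DESeq2 was used, per the submitters' processing notes. Their versions, the annotation and the strand setting were not given in the sources used here.

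In R 4.3.3, all genes kept by filterByExpr (minimum count 10) were fitted with edgeR 4.0.16 (TMM, robust quasi-likelihood F test, no covariate, Benjamini-Hochberg adjusted p under 0.05), which was tested on simulated data. DESeq2 1.42.0, limma 3.58.1 (voom, and log2 of FPKM plus 1 or 0.1), other scalings, other filters, batch, replicate number and leaving out each library were alternatives. Standard errors were derived from the F statistic. Groups do not overlap where every CPM of one lies above every CPM of the other. Precision is limited by 3 samples a group, and p-values measure the spread between these samples. RefSeq on GRCr8 gave promoter sequences and overlapping genes; all 37 symbols matched.

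Members and lists were chosen with earlier results of these data known. Values in every library are given for transporters, regulated steps and alternative forms, and for the 4 genes of smallest p in each arm; related lists name the 4 of smallest p, except that some genes the rule names are not reported here.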

Additional observations from a re-analysis of the deposited data

How the results depend on the processing

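The count of genes past the threshold was 0 under all 18 alternatives run (0 of 36 in DESeq2, which gave Slc16a3 no p-value, and 0 of 37 in the others), with adjusted p-values of at least 0.604. Across 19 alternatives and 37 genes, 632 of 703 log2 fold changes stayed within 1 standard error of the reported value and 71 moved further. The sign changed in 127. The moves were not spread evenly: batch as a factor moved 25 of the 37 genes by more than 1 standard error and changed the sign of 23. Batch 2 alone gave the same 25 and 23. With batch as a factor, a fit whose group estimate rests on batch 2, the median log2 fold change was -0.139 in the glycolysis arm and -0.116 in the TCA arm, and in batch 2 alone it was -0.139 and -0.116. Leaving out each library in turn gave medians of -0.0198 to 0.115 (glycolysis) and -0.0065 to 0.139 (TCA), and a difference between arms of -0.0266 to 0.0079. On the log2(FPKM + 1) scale the medians were -0.031 and 0.0005. The difference between arms, conduit minus injury, was -0.0586 with genes of at least 10 FPKM only, a setting that leaves out Hk2, Slc16a3 and Aldoa. Of these genes only Aldoa was also left out alone, and the parts of Hk2 and Slc16a3 in that value were not tested. Of 100 pair ratios under other settings, 94 moved by less than 1 SD and 6 by more, with 13 sign changes. Leaving out injury sample 1 with conduit sample 2, and leaving out Aldoa, were added after seeing the data.

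With a replicate block the medians were 0.024 and 0.056, 0 genes were called, and the difference between arms was -0.0048. Same-numbered samples deviated together with correlations of -0.417, 0.0574 and -0.0715, and samples of unlike number with -0.348 to 0.327. With 3 samples a group, these values cannot show whether the numbers pair samples. The main fit took the samples as unpaired. Slc16a3, Hk2 and Aldoa had the fewest counts, and depth limits their values most.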
